A study of Mus musculus with 13 samples.

Results

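Lesions of the tail vertebrae of Prkar1a+/- mice were compared with tail vertebral bone of WT mice. The 7 samples used, 3 lesions and 4 WT bones, are those of these 2 groups among the 13 samples of the series. Probes detected on 2 or more of the 7 arrays were tested, and the brightest tested probe of each gene symbol stands for the gene. All 7 samples were total RNA of caudal vertebral bone from mice 9 months old on a C57BL/6x129Sv/B6 hybrid background, with 1 Illumina bead array per sample. The Prkar1a+/- samples carry 1 disrupted copy of Prkar1a and are all lesions, whereas no WT sample is a lesion, so that lesion and genotype cannot be told apart. The labels number the replicates without saying that each is a separate mouse, and p-values therefore measure only the spread between these samples. The bone, osteoclast, muscle, fat and red cell markers were set aside, and the account below covers the other genes and processes.

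Protein kinase A is the cAMP-dependent kinase. In the resting state its catalytic subunits are held inactive by a dimer of regulatory subunits, and cAMP that forms after a hormone such as parathyroid hormone binds its receptor releases them. Prkar1a encodes the type I alpha regulatory subunit, and loss of 1 copy leads to bone tumours of the tail in mice and to Carney complex in humans.

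Between 13555 and 14746 of the 25697 probes were detected on an array, that is with a detection p-value under 0.01, which sets a probe's signal against the negative controls of the array. Log2 intensities of WT arrays correlated with each other at Pearson r = 0.962 to 0.987 across probes, those of lesion arrays at 0.945 to 0.977 and those of WT with lesion arrays at 0.835 to 0.959. On the first principal component, with 72.7% of the variance, the WT arrays lay between -58.9 and -23.7 and lesion arrays 1, 2 and 3 at 20.97, 92.1 and 62.5, so that lesion 1 lay nearest to WT and lesion 2 farthest. The mean log2 intensity of the osteoblast and osteocyte list lay between 8.96 and 9.45 on the WT arrays and between 10.83 and 11.18 on the lesion arrays, so that bone markers were present in all samples. The mean of 244 skeletal muscle genes was 10.17 to 10.59 on the WT arrays and 9.64, 7.56 and 8.70 on lesion arrays 1, 2 and 3. In these bulk samples fewer cells of a type and less RNA per cell cannot be told apart. Xist, which is transcribed from the inactive X of females, was at 8.40 on WT 2 and at 8.45 and 8.81 on lesions 2 and 3, and between 4.70 and 4.94 on the other arrays. The Xist-high arrays were thus 1 of 4 WT and 2 of 3 lesion arrays. With them as a covariate 1456 genes were higher and 1234 lower at a limma adjusted p under 0.05, and over the Xist-low arrays alone 306 and 128, the latter with 1 lesion array against 3 WT arrays.

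Prkar1a itself was lower in the lesions. Its log2 intensity was 12.61, 12.53, 12.62 and 12.51 on WT arrays 1 to 4 and 11.39, 10.95 and 11.09 on lesion arrays 1 to 3. All lesion arrays lay below all WT arrays, and the level was 37.2% of that of WT (95% interval 29.4% to 47.1%; log2 difference -1.43 ± 0.15 (SE), limma adjusted p = 9.08e-04). An exact permutation test over the 7 samples gave a two-sided p of 0.0571, the smallest that 3 against 4 samples allow. The sources used here do not give the position of the probe relative to the disrupted part.

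Other parts of the kinase were lower too. Of 7 measured subunits and inhibitors 4, Prkar1a included, fell and none rose, and the median log2 difference was -1.07 against 0.01 for all genes. Without lesion 3 the falls numbered 2. Over all genes tested 16.7% fell and 18.2% rose. Prkaca, the Cα catalytic subunit, fell by 1.07 ± 0.24 on the log2 scale (limma adjusted p = 0.0133). Prkar2a, a type II regulatory subunit, fell by 1.11 ± 0.20 (adjusted p = 0.00695), and Pkia, a peptide inhibitor of the kinase that skeletal muscle holds in high amounts, fell by 2.49 ± 0.68 (adjusted p = 0.0253). The catalytic subunits Prkacb and Prkx and the inhibitor Pkig did not pass the threshold, with log2 differences of -0.20 ± 0.15, 0.06 ± 0.14 and -0.15 ± 0.13, although a dimmer probe of Pkig differed by -0.56 (adjusted p = 0.0274). Pkia was 11.83 on lesion 1, 8.43 on lesion 2 and 10.71 on lesion 3, against 12.25 to 13.16 on the WT arrays, and so followed the order of the muscle list over the lesions. Prkar1a and Prkaca had the same order, with lesion 1 highest and lesion 2 lowest, whereas Prkar2a did not. With muscle list means as a covariate, the log2 difference of Prkar1a was -1.07 (adjusted p = 0.144) and that of Pkia turned to 0.44.

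Across 10596 genes, 3694 (34.9%) differed between the groups at a limma adjusted p under 0.05. Of all genes tested 18.2% (1929) were higher in the lesions and 16.7% (1765) lower. Without regard to the test, all lesion arrays lay above all WT arrays for 21.9% of the genes and below them for 20.4%. The difference was past 1 on the log2 scale for 949 of the higher and 853 of the lower genes, and past 2 for 199 and 216. The muscle list mean was lower on every lesion array than on every WT array. Entered as a covariate, it left 20 higher and 0 lower genes past the threshold in limma, with 669 higher and 347 lower at an unadjusted p under 0.05 and 4 residual degrees of freedom. This covariate correlated with the lesion group at r = -0.835, so the fit also removes much of the group difference. Calls lost and signs turned with it cannot be assigned to muscle. Of the 20 genes, Hapln4 had a limma adjusted p of 0.0271 and the others 0.0405. The 20 genes include the bone genes Col1a1, Tnn and Ifitm5, the link protein gene Hapln4, Sgms2, Gxylt2, Hoxb2, Adamts4, the cell cycle genes Cdk1, Tpx2 and Pclaf, and the secretory pathway genes Pdia5 and Fkbp11. Without lesion 2 the counts were 1028 higher and 760 lower genes, without lesion 3 they were 1147 and 717, and without WT 3 and without WT 4 the lower genes numbered 976 and 989.

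**Figure D1:**
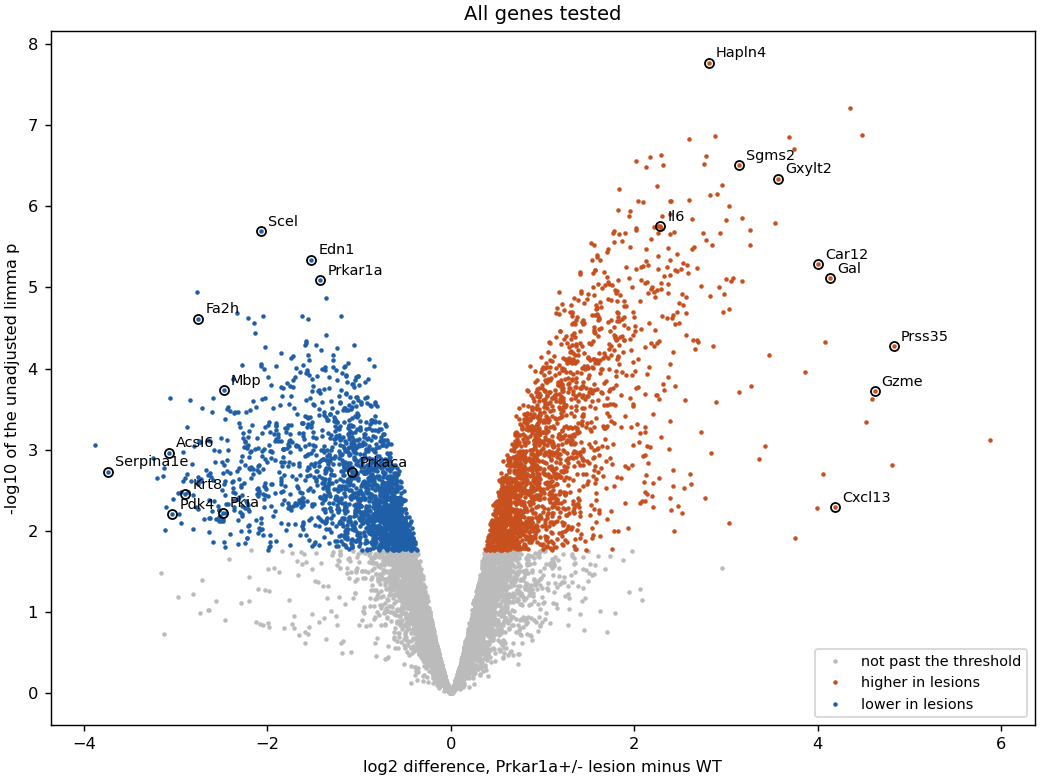
Log2 difference (lesion minus WT, horizontal) against the negative log10 of the unadjusted limma p (vertical) for each of the 10596 genes. Of these, 1929 genes are past the threshold on the higher side and 1765 on the lower side, and labelled points are genes described in the text.

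Prss35 was among the 15 rises with the widest gap between the groups. The gene, which encodes a secreted protein of the serine protease family, was 9.99, 7.57, 7.64 and 7.02 on WT arrays 1 to 4 and 12.30, 13.06 and 13.31 on lesion arrays 1 to 3. WT 1 stood above the other WT arrays and still more than 2 log2 units below the nearest lesion, and the mean rise was 28.5-fold (log2 4.83 ± 0.64, limma adjusted p = 0.00212). Gal, the neuropeptide galanin, was 6.07, 4.92, 6.73 and 6.26 on the WT arrays, detected on 3 of them, and 9.50, 10.26 and 10.63 on the lesion arrays. It rose 17.5-fold (adjusted p = 8.84e-04) with no overlap between the groups. Car12, a carbonic anhydrase at the cell surface, was not detected on any WT array and reached 7.96, 9.48 and 9.66 on the lesion arrays. It rose at least 12.8-fold (adjusted p = 7.52e-04). Such a bound compares the mean of the detected group with a floor for the other group, which on each array is the lowest detected signal or, if larger, the signal of the probe.

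Gxylt2, which adds xylose to O-glucose on the extracellular repeats of Notch, rose 11.8-fold, from 6.77 to 7.58 in WT to 10.30 to 10.99 in the lesions (limma adjusted p = 3.57e-04). Mst1r, the receptor tyrosine kinase RON, was 6.44 to 7.13 in WT and 9.47 to 10.58 in the lesions and rose 9.62-fold. Mdk, the heparin-binding growth factor midkine, was 7.57 to 8.68 in WT and 10.88 to 11.96 in the lesions and rose 9.05-fold. Sgms2, a sphingomyelin synthase of the plasma membrane, was 6.19, 5.97, 6.06 and 6.37 on the WT arrays and 8.79, 9.44 and 9.62 on the lesion arrays, which places every lesion more than 2 log2 units above every WT array. The aggrecan-cleaving protease Adamts4 rose by 2.76 ± 0.19, the hyaluronan link protein Hapln4, undetected in WT, at least 5.19-fold, and Aldh1l2, a mitochondrial enzyme of folate metabolism, by 2.96 ± 0.22. Srpx, Ydjc and Hoxb2 and the histone genes H2ac7 and H2ac12 complete the 15, of which all had an adjusted p of 0.00212 or less. The H2A cluster genes are near copies of each other, so their probes may share transcripts.

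Fa2h was among the 15 falls with the widest gap. Fa2h, which hydroxylates the fatty acids of myelin lipids, was 9.06, 7.99, 8.64 and 8.83 on the WT arrays and 6.27, 5.17 and 6.17 on the lesion arrays, 6.77-fold lower in the lesions (limma adjusted p = 0.00143). Edn1, the vasoconstrictor peptide endothelin-1, was 7.85, 7.69, 8.03 and 8.02 on the WT arrays and 6.43, 6.24 and 6.45 on the lesion arrays. Its groups were tight and apart, with a 2.87-fold fall (adjusted p = 7.17e-04). Slc47a1, an exporter of organic cations, was 10.13 to 10.29 on the WT arrays but ranged over 8.58, 5.87 and 7.89 on the lesion arrays. Lmcd1, a LIM-domain cofactor of striated muscle, was 12.64 to 13.53 in WT and 11.36, 9.85 and 10.89 in the lesions. For both genes lesion 1 was highest and lesion 2 lowest, the order of the muscle list. Prkar1a, Prkaca and Mbp had it too, and on the first principal component lesion 1 lay nearest to WT and lesion 2 farthest. The order is thus not particular to muscle genes. Serpina1e, an alpha-1-antitrypsin gene, was 10.64, 7.26, 9.97 and 7.53 on the WT arrays and 4.56, 4.75 and 6.02 on the lesion arrays, detected on 1 of these (limma adjusted p = 0.0133). Serpina1e is 1 of several near-identical copies that cannot be told apart by every probe. The epithelial genes Krt17, Scel and Dmkn, the myelin genes Mbp and Ugt8a, and P2rx1, Myl6b, Hspa1l, Mpp3 and Tmtc1 make up the rest. Of these 15 falls, Fa2h, Ugt8a and Tmtc1 were detected on 2 of 3 lesion arrays, Serpina1e, Scel and P2rx1 on 1 and Krt17 on none, so the sizes of their falls rest in part on signals not above background. Of the probes for Mbp and Dmkn, 1 each did not pass the threshold, with log2 differences of 0.38 (adjusted p = 0.308) and -0.21 (adjusted p = 0.582).

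**Figure D2:**
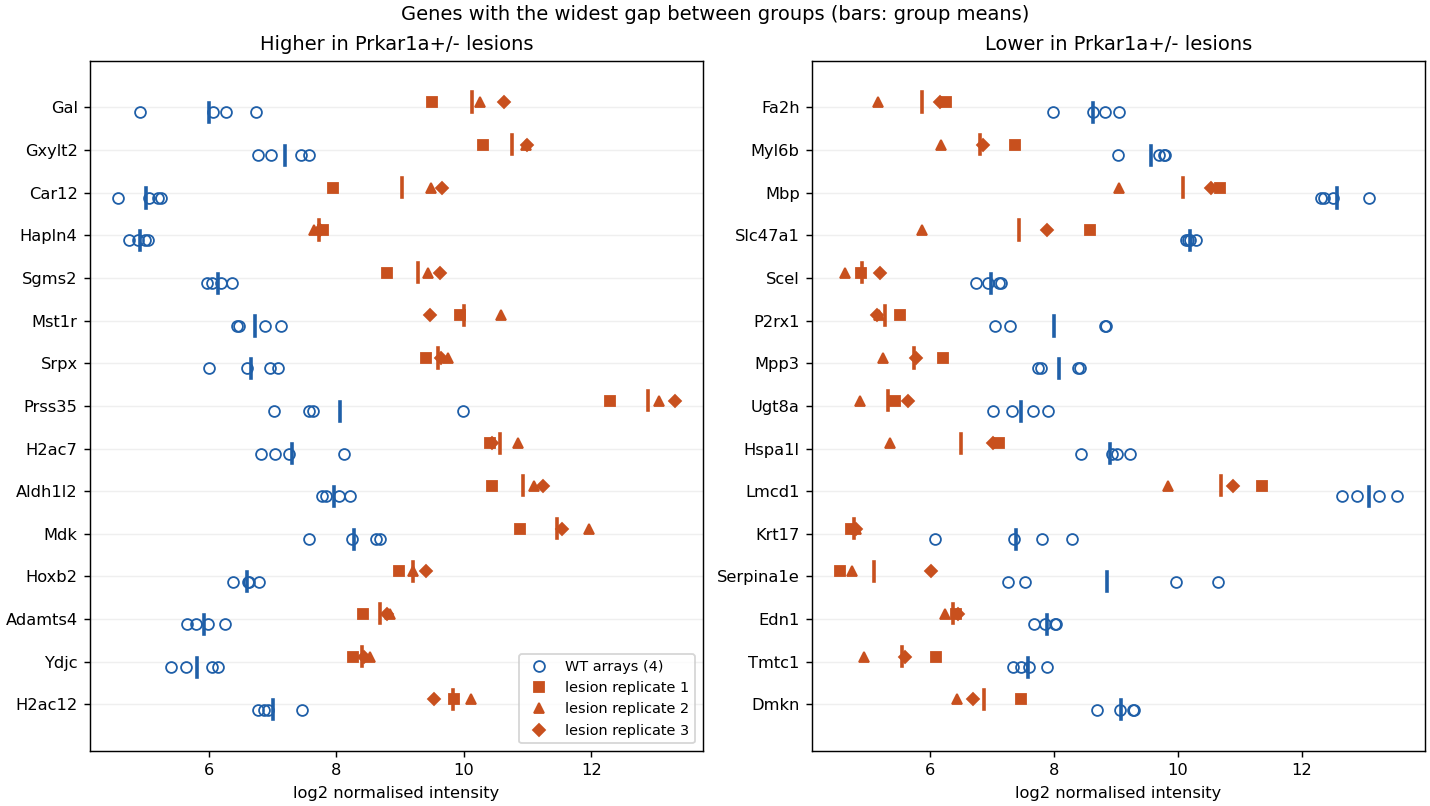
Log2 normalised intensity (horizontal) of the 15 rises (left) and 15 falls (right) with the widest gap between groups. Open circles are WT arrays, filled symbols the 3 lesion arrays and bars the group means, and no gene shown has overlapping groups, which was the condition for showing it.

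All 21 measured genes of mitosis and chromosome segregation were higher in the lesions, with log2 differences of 0.61 to 2.58 and a median of 1.88 beside 0.01 for all genes. The list holds 32 genes, and a gene was measured only if detected on 2 or more of the 7 arrays. Members undetected in WT, such as Kif2c and Cdk1 below, thus entered only through the lesions, so the filter favoured rises in this count. The list mean was 5.70 to 6.12 on the WT arrays and 7.39, 7.52 and 7.66 on the lesion arrays, so that the 3 lesions were alike here and all above WT. Prc1, which bundles the microtubules of the central spindle, was 6.88, 7.78, 6.87 and 6.83 on the WT arrays and 9.50, 9.60 and 9.90 on the lesion arrays, with WT 2 above the other WT arrays (5.98-fold, limma adjusted p = 7.52e-04). Kif2c, a kinesin that trims microtubules at the centromere, was undetected on every WT array and at 6.55, 7.80 and 7.47 on the lesions, at least 3.79-fold higher. Cdk1, the kinase that drives entry into mitosis, was likewise undetected in WT and at least 3.53-fold higher. Top2a, Birc5 and Cenpa differed by 2.45, 2.22 and 2.12. Leaving out any 1 array gave 19 or 20 rises. Every lesion array had both a higher mean of this list and a lower muscle mean than every WT array, and these cannot be separated here. With muscle list means as a covariate 2 of the 21 passed the threshold, and the median was 1.43.

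Among 26 genes of DNA replication and S phase 13 rose and 1 fell (median 0.58), and 8 rose without WT 4 or lesion 2. Tyms, thymidylate synthase, rose by 1.75 ± 0.20, although another of its probes showed -0.15 (adjusted p = 0.570), and Mcm5, a subunit of the replicative helicase, rose by 1.71 ± 0.16. Without WT 4 this list had 8 rises. Mcm2, of the same helicase, fell by 0.48 ± 0.16 (limma adjusted p = 0.0472), from 7.16 to 7.63 in WT to 6.71 to 6.96 in the lesions. Of 22 cell cycle inhibitors and p53 targets 3 rose and 3 fell, beside 18.2% and 16.7% of all genes tested, and 1 fell without lesion 2 or lesion 3. Cdkn2b, an inhibitor of the kinases Cdk4 and Cdk6, rose by 1.41 ± 0.18 and Pmaip1, the pro-apoptotic Noxa, by 1.05 ± 0.30, whereas Ccng1 and Tob1 fell by 1.32 ± 0.31 and 1.08 ± 0.32.

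Promoters of mitotic genes are known for the cell cycle homology region, TTTGAA, which is bound by the DREAM and MuvB complexes, and for CCAAT boxes, which are bound by NF-Y. In the RefSeq promoters of build GRCm38.p6, windows of 300 bases around each start, matched to 8547 of the 10596 tested genes (80.7%), both strands were searched. TTTGAA was present in 16 of 19 matched promoters of the mitosis list (84.2%), in 12.1% of promoters of genes tested and in 18.1% of all 27025 promoters. CCAAT was present in 13 of the 19 (68.4%) and in 38.5% of those of genes tested. The promoters of Prc1 (chr7:80294201-80294500, plus strand), Kif2c (chr4:117178723-117179022, minus strand) and Cdk1 (chr10:69352863-69353162, minus strand) are shown 5′ to 3′ on the strand of the gene because they belong to the most strongly raised mitotic genes. Capitals mark TTTGAA or its reverse complement TTCAAA, and CCAAT or its reverse complement ATTGG.
Prc1: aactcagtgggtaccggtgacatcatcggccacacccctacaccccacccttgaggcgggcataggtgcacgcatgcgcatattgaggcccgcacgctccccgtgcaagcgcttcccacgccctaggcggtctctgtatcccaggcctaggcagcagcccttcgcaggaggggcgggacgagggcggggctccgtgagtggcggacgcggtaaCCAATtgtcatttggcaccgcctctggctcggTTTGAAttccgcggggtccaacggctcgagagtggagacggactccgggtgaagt
Kif2c: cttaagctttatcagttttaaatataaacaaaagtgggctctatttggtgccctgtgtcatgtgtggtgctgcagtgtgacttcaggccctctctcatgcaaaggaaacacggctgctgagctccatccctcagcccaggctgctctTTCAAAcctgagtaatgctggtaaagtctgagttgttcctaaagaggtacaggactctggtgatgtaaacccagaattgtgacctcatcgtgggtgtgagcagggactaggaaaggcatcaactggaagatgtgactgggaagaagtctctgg
Cdk1: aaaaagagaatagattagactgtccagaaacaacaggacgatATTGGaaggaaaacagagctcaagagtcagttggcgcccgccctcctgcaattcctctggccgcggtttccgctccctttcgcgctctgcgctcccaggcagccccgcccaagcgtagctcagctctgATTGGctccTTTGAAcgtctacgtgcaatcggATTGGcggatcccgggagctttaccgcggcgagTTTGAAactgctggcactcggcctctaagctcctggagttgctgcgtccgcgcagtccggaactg
In Prc1 the TTTGAA begins 5 bases before the annotated start and the CCAAT 37 before it. In Cdk1 the copies of TTTGAA begin 71 and 15 bases before the start, with CCAAT boxes on the other strand at 208, 80 and 48, and in Kif2c the match begins 103 bases before it. A match is a description of letters and no evidence of binding in these samples.

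The secretory pathway rose broadly. Of 41 measured genes of folding, translocation and transport in the endoplasmic reticulum (ER), 28 were higher and none lower, and the median log2 difference was 0.81. Kdelr2 and Kdelr3, receptors that return escaped ER proteins from the Golgi, were the largest. Kdelr2 was 9.27, 9.44, 8.73 and 9.08 on the WT arrays and 11.26, 11.95 and 12.05 on the lesion arrays, 6.17-fold higher with no overlap (limma adjusted p = 6.18e-04). Kdelr3 rose by 2.41 ± 0.19. The list mean was 9.55 to 9.76 in WT and 10.30, 10.68 and 10.71 in the lesions. Pdia5, Sec24d and the transcription factor Xbp1, which controls ER capacity, differed by 2.02, 1.95 and 0.93, all past the threshold. With muscle list means as a covariate 1 of the 41 passed it, and the median was 0.50.

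The rise was not uniform over the chaperones. Hspa5, the ER chaperone BiP, rose by 0.97 ± 0.17 (limma adjusted p = 0.00636), whereas Hsp90b1, Calr, Pdia6, Dnajc3 and Creld2 did not pass the threshold, with log2 differences of 0.45, 0.52, 0.25, 0.28 and 0.67. These 6 genes are the members of the list with the ER stress response element (CCAAT, 9 bases of any kind and CCACG) in the promoter, 18.8% of 32 matched promoters beside 0.14% of those of genes tested. The element includes a CCAAT box. That of Hspa5 (chr2:34771840-34772139, plus strand), the 1 that passed the threshold, is shown with the element in capitals, which begins 65 bases before the start.
Hspa5: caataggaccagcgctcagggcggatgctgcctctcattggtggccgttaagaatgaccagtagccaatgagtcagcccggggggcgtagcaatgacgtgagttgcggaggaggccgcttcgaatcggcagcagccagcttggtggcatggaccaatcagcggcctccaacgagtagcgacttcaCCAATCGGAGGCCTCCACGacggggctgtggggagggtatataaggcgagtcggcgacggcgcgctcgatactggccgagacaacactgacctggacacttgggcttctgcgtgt
The promoter of Kdelr3 holds none of these letters in this window, and Kdelr2 had no matched entry.

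The list of genes tied to the transcription factor ATF4 had 8 rises and 2 falls among 20 (median 0.34), with no fall without WT 1, WT 3, WT 4, lesion 2 or lesion 3. It holds serine, glycine and aminoacyl-tRNA genes and also others, such as Nupr1, Ddit3 and Vldlr. Nupr1 rose by 1.87 ± 0.24 and Mthfd2, a mitochondrial folate enzyme, by 1.57 ± 0.14. Ddit3, the stress factor CHOP, fell by 0.91 ± 0.31 (limma adjusted p = 0.0489) and Vldlr by 0.91 ± 0.26. Of 30 genes of glycosaminoglycan and glycan synthesis 17 rose and 2 fell (median 0.64). Chsy1, which extends chondroitin chains, rose by 2.14 ± 0.22, and Galnt3, which starts O-glycans and protects FGF23 from cleavage, by 2.47 ± 0.29. The sulfotransferases Chst3 and Hs6st1 fell by 0.78 ± 0.17 and 0.46 ± 0.15. Serpinh1, the collagen chaperone HSP47, rose by 2.29 ± 0.24 and Gpx7, an ER peroxidase, by 2.29 ± 0.20. Iron and copper genes had 8 rises and no fall among 20, led by Steap1, a metalloreductase (1.88 ± 0.21), and Heph, a copper-containing ferroxidase (1.82 ± 0.42), with 4 rises without lesion 2 and 5 without lesion 3.

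Cytosolic ribosomal protein genes had 9 rises and 1 fall among 34, beside 18.2% and 16.7% of all genes tested. The rises numbered 5 without WT 1, 3 without lesion 3, 2 without WT 4, 1 without WT 3 and 0 without lesion 2. Rpl3 and Rpl19 rose by 0.77 ± 0.19 and 0.69 ± 0.17 and Rpl22 fell by 0.78 ± 0.21. Ribosome biogenesis genes had 4 rises and 3 falls among 31, beside the same shares, and without lesion 2 they had 2 rises and 1 fall. Fbl, the methyltransferase of small nucleolar RNPs, was up by 0.95 ± 0.20 and Rrp12 down by 1.05 ± 0.20.

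**Figure D3:**
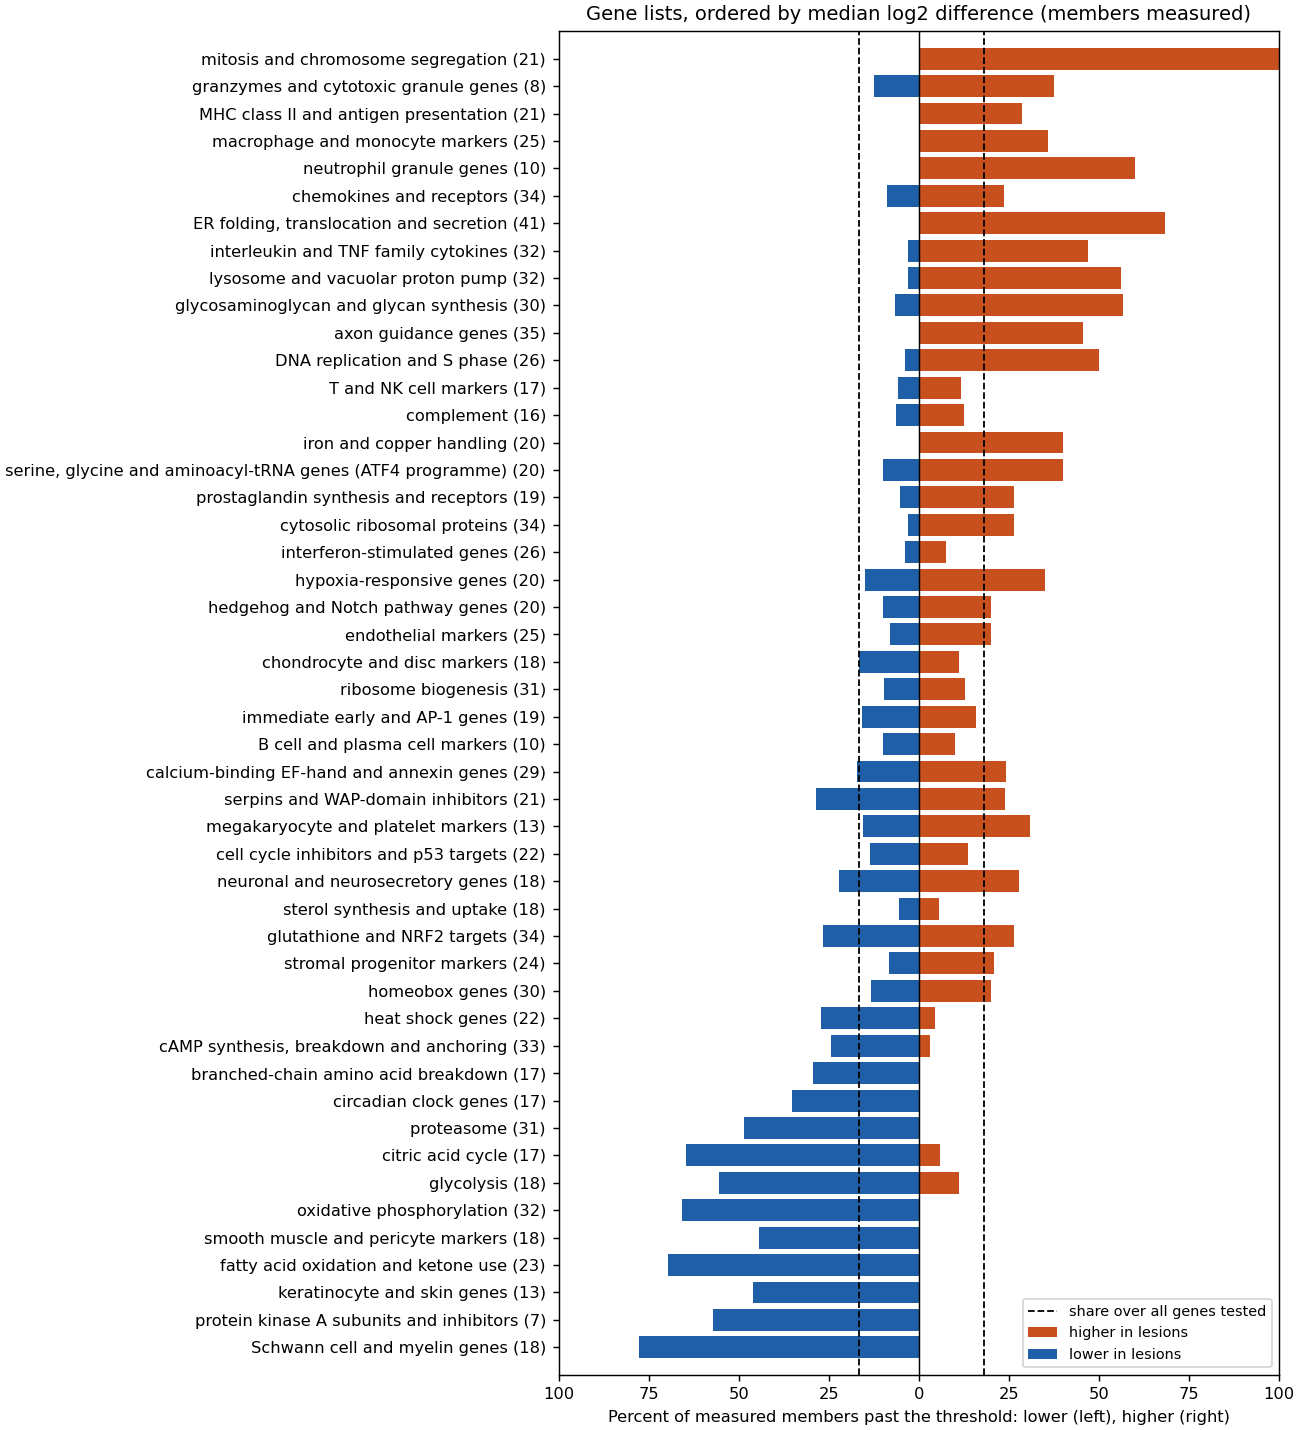
Percent of the measured members of each list reported here past the threshold, lower to the left and higher to the right, ordered by median log2 difference, with the number measured in brackets. Dashed lines mark the 18.2% higher and 16.7% lower among all genes tested, and the 21 measured of 32 mitosis genes fill the higher side. Members undetected in WT entered a list only through the lesions.

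Genes of energy metabolism fell. Of 32 oxidative phosphorylation genes 21 fell and none rose (median -0.77), of 23 genes of fatty acid oxidation and ketone use 16 fell and none rose (median -0.86), and of 17 citric acid cycle genes 11 fell and 1 rose (median -0.70). Acsl6, an acyl-CoA synthetase, was 11.29, 10.76, 12.07 and 12.22 on the WT arrays and 10.07, 7.21 and 8.25 on the lesion arrays, 8.43-fold lower with no overlap (limma adjusted p = 0.0103). Cpt1b, the muscle form of the carnitine palmitoyltransferase that admits fatty acids to mitochondria, was 11.31 on lesion 1, above WT 2 at 11.04, and 7.64 and 9.47 on lesions 2 and 3 (log2 -2.41 ± 0.74, adjusted p = 0.0368). Ndufs4 and Ndufa5 of complex I fell by 1.13 ± 0.23 and 1.15 ± 0.28. The exception in the citric acid cycle was Idh3b, a subunit of NAD-dependent isocitrate dehydrogenase, which rose by 0.70 ± 0.13, while Cs and Mdh1 fell by 1.15 ± 0.22 and 1.16 ± 0.23.

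Glycolysis genes moved both ways, with 10 falls and 2 rises among 18 (median -0.75). Pdk4, a kinase that shuts pyruvate dehydrogenase in fasting muscle, was 10.77, 9.75, 12.56 and 13.01 on the WT arrays and 8.22, 7.42 and 9.80 on the lesion arrays, with lesion 3 above WT 2, and its mean fell 8.23-fold (limma adjusted p = 0.0259). Pdk2 fell by 2.31 ± 0.42. Pgam1, the non-muscle phosphoglycerate mutase, and the hexokinase Hk1 rose by 1.03 ± 0.23 and 0.73 ± 0.24. Branched-chain amino acid breakdown had 5 falls among 17 (3 without WT 3, 2 without lesion 2 and 1 without lesion 3), with Aldh6a1 down by 1.17 ± 0.29 and Dbt by 1.07 ± 0.16, although a dimmer Dbt probe differed by -0.21 (adjusted p = 0.472). Of 31 proteasome genes 15 fell and none rose (median -0.46). Psmd2 and Psmb7 fell by 0.99 ± 0.25 and 0.97 ± 0.27.

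The metabolic and proteasome lists moved with the muscle list over the lesions. The oxidative phosphorylation mean was 12.26 to 12.63 on the WT arrays and 12.19, 11.49 and 11.61 on lesions 1, 2 and 3, and that of the proteasome was 11.25 to 11.43 in WT and 11.11, 10.70 and 10.80. With muscle list means as a covariate, no member of these lists passed the threshold, and the log2 difference of Cpt1b turned to 0.75. Leaving out lesion 1 gave 26 falls in oxidative phosphorylation and 20 in the proteasome. Without lesion 2, lesion 3, WT 3 or WT 4, the falls numbered 4 to 7 in oxidative phosphorylation, 2 to 4 in the proteasome, 4 to 7 in fatty acid oxidation and 3 to 4 in the citric acid cycle. Without WT 1 they numbered 12 in oxidative phosphorylation and 5 in the citric acid cycle, and glycolysis had 6 without lesion 2 and 5 without lesion 3. This covariate itself followed the group (r = -0.835), and the part of muscle content in these falls was not tested beyond it.

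Of 32 interleukin and TNF family genes 15 rose and 1 fell (median 0.68). Il6, the cytokine interleukin-6, was 5.58, 5.15, 4.97 and 4.81 on the WT arrays, detected on 1 of them, and 7.34, 7.52 and 7.38 on the lesion arrays. The 3 lesions were nearly equal and all above WT (limma adjusted p = 5.01e-04), and no fold is given since 3 WT arrays did not detect the gene. Tnfsf13b, the B cell factor BAFF, was 8.41 on lesion 1, close to 8.13 and 8.27 on WT 1 and 2, and 11.21 and 10.16 on the other lesions (log2 2.40 ± 0.65). Tnfrsf12a, the receptor of TWEAK, fell by 1.11 ± 0.29. The rises in this list numbered 5 without lesion 2 or 3, 6 without WT 4, 7 without WT 3 and 9 without WT 1.

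Chemokines and their receptors had 8 rises and 3 falls among 34 (median 0.96), beside 18.2% and 16.7% of all genes tested. Cxcl13, which attracts B cells, was 11.95, 8.30, 7.46 and 8.42 on the WT arrays and 11.30, 14.57 and 13.79 on the lesion arrays. Lesion 1 lay below WT 1, so the groups overlapped, and the mean rise was 18.2-fold (log2 4.19 ± 1.12, limma adjusted p = 0.0231). Cxcl5, a neutrophil chemokine, was 9.11, 6.66, 6.03 and 5.08 in WT and 9.91, 12.20 and 10.22 in the lesions. Ccl11, eotaxin, fell by 1.56 ± 0.32 and Ccl27a by 1.41 ± 0.37. Without lesion 1 the rises in this list numbered 20, and without WT 3, WT 4, lesion 2 or lesion 3 they numbered 3.

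Myeloid markers were uneven over the arrays. Of 25 macrophage and monocyte markers 9 rose and none fell (median 1.01). The list mean was 8.30, 8.90, 7.33 and 7.71 on WT arrays 1 to 4 and 8.51, 9.64 and 9.27 on the lesions, so that lesion 1 lay below WT 2. Ms4a7 and the C-type lectin Clec4n rose by 2.62 ± 0.62 and 2.15 ± 0.46. The count was 1 without lesion 3, 2 without lesion 2, 5 without WT 3 or WT 4, and 15 without WT 2 or lesion 1. MHC class II and antigen presentation genes had 6 rises among 21 (median 1.05), 16 without lesion 1 and 2 with any other array but WT 2 left out. B2m, the light chain of MHC class I, was 12.85, 13.08, 11.80 and 11.90 in WT and 12.76, 14.31 and 14.23 in the lesions (limma adjusted p = 0.0491), with lesion 1 within the WT range. Of 26 interferon-stimulated genes 2 rose and 1 fell, beside 18.2% and 16.7% of all genes tested. Without lesion 1 the rises numbered 9, without WT 1 there was 1, and without WT 3, WT 4, lesion 2 or lesion 3 there was none. With muscle list means as a covariate the medians of the chemokine, macrophage and MHC lists were -0.35, -0.16 and -0.69.

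Lysosome and proton pump genes rose in 18 of 32 with 1 fall (median 0.68), and lysosomes serve both osteoclasts and macrophages. Ctsh and Ctsc, lysosomal peptidases, rose by 2.16 ± 0.31 and 2.27 ± 0.52, and Atp6v0a1, a subunit of the proton pump, fell by 0.49 ± 0.16. Neutrophil granule genes had 6 rises among 10 measured of 23 listed. Members undetected in WT, such as Camp, entered only through the lesions, so the filter favoured rises in this count. S100a9 rose by 2.11 ± 0.50, and Camp, undetected in WT, at least 4.59-fold, with lesion 2 at 9.29 against 6.60 and 6.75 on the others. Without lesion 2 or lesion 3 this list had 2 rises. The lysosome list had 9 rises without lesion 2 and 8 without lesion 3.

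T and NK cell markers had 2 rises and 1 fall among 17, beside 18.2% and 16.7% of all genes tested, and 7 rises without lesion 1. The list mean was 5.61 to 6.05 in WT and 5.79, 7.40 and 6.26 in the lesions, so that lesion 2 stood well above WT, lesion 3 slightly above it and lesion 1 within the WT range. Cd247, the zeta chain of the T cell receptor, was 6.32, 6.21, 6.64 and 6.88 in WT and 8.67, 9.43 and 9.40 in the lesions, 6.30-fold higher with no overlap (limma adjusted p = 6.11e-04), and Lat rose by 1.77 ± 0.30. Zap70, the kinase that binds the zeta chain, fell by 0.86 ± 0.25, and its second probe did not pass (-0.50, adjusted p = 0.101). The median of the list was -0.10 without lesion 2. Granzymes had 3 rises and 1 fall among 8 measured of 19 listed, and 6 rises without lesion 1. Members undetected in WT, such as Gzmd, passed the filter of 2 arrays only through the lesions, so it favoured rises in this count. With probes detected on every array the median was -0.062 over 3 genes. Gzme was 5.49, 4.51, 4.68 and 4.39 in WT, detected on 1 array, and 7.29, 10.13 and 10.75 in the lesions (adjusted p = 0.00422), and Gzmd, undetected in WT, rose at least 4.46-fold. Gzmm fell by 1.49 ± 0.34. Gzmd and Gzme belong to a cluster of near-identical genes, and the second probe of Gzmd differed by 0.32 (adjusted p = 0.194). B cell and plasma cell markers had 1 rise, Sdc1 (2.15 ± 0.21), and 1 fall, Mzb1 (0.98 ± 0.16), among 10, beside the same shares of all genes. They had 3 rises without WT 2 or lesion 1.

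Of 19 prostaglandin genes 5 rose and 1 fell, with 3 rises without WT 3, WT 4, lesion 2 or lesion 3 and 3 falls without lesion 1. Over all genes tested 18.2% rose and 16.7% fell, and the counts of this paragraph are to be read beside these shares. Pla2g7, a lipoprotein-associated phospholipase, rose by 2.20 ± 0.55, Hpgd, which degrades prostaglandins, rose by 1.44 ± 0.25, and Ptgir, the prostacyclin receptor, fell by 0.73 ± 0.23. Of 16 complement genes C1s1 and Cfi rose by 1.32 ± 0.39 and 0.93 ± 0.16 and Masp1 fell by 0.83 ± 0.20. The complement rises numbered 6 without WT 2, 5 without lesion 1 and 1 with any other array left out. Of 21 serpins and WAP-domain inhibitors 5 rose and 6 fell, and 2 fell without lesion 2 or lesion 3. Slpi, an inhibitor of neutrophil elastase, was 11.47, 8.41, 6.86 and 6.73 in WT and 13.01, 13.93 and 12.60 in the lesions, 28.1-fold higher on average with WT 1 nearest to the lesions (limma adjusted p = 0.0120). Wfdc2 fell by 1.55 ± 0.23 and Serpina1a by 2.21 ± 0.58.

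Genes of Schwann cells and myelin fell in 14 of 18 and rose in none, with a median of -1.48. The list mean was 9.17, 8.66, 8.66 and 8.90 on the WT arrays and 7.66, 6.96 and 7.58 on the lesions, which is also the order of the muscle list over the lesions. Mbp, the myelin basic protein gene, was 13.08, 12.36, 12.31 and 12.50 in WT and 10.68, 9.05 and 10.53 in the lesions, 5.57-fold lower with no overlap (limma adjusted p = 0.00418). Pllp, the membrane protein plasmolipin, fell by 2.60 ± 0.42. The count was 13 or 14 whichever array was left out, and the median was -0.98 with the muscle covariate, where no member passed the threshold. Of 18 neuronal and neurosecretory genes 5 rose and 4 fell (median 0.03), beside 18.2% and 16.7% of all genes tested. Brinp3, like Gal above, was higher in the lesions, with 7.54, 4.40, 4.85 and 4.51 in WT and 8.98, 10.25 and 10.54 in the lesions, WT 1 being the 1 WT array that detected it (adjusted p = 0.00472). Scg3, a secretory granule protein, and Ntrk3, a neurotrophin receptor, fell by 1.82 ± 0.41 and 1.11 ± 0.21, although the other 3 probes of Ntrk3 did not pass.

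Axon guidance genes, many of which also act between bone cells, rose in 16 of 35 with no fall (median 0.63). Unc5b, a netrin receptor, was 8.05 to 8.67 in WT and 10.07 to 10.67 in the lesions (log2 2.13 ± 0.21, limma adjusted p = 7.22e-04). Efna5, an ephrin ligand, rose by 2.02 ± 0.18, and its second probe by 0.76 (adjusted p = 0.0109). Without lesion 2 the rises numbered 11.

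**Figure D4:**
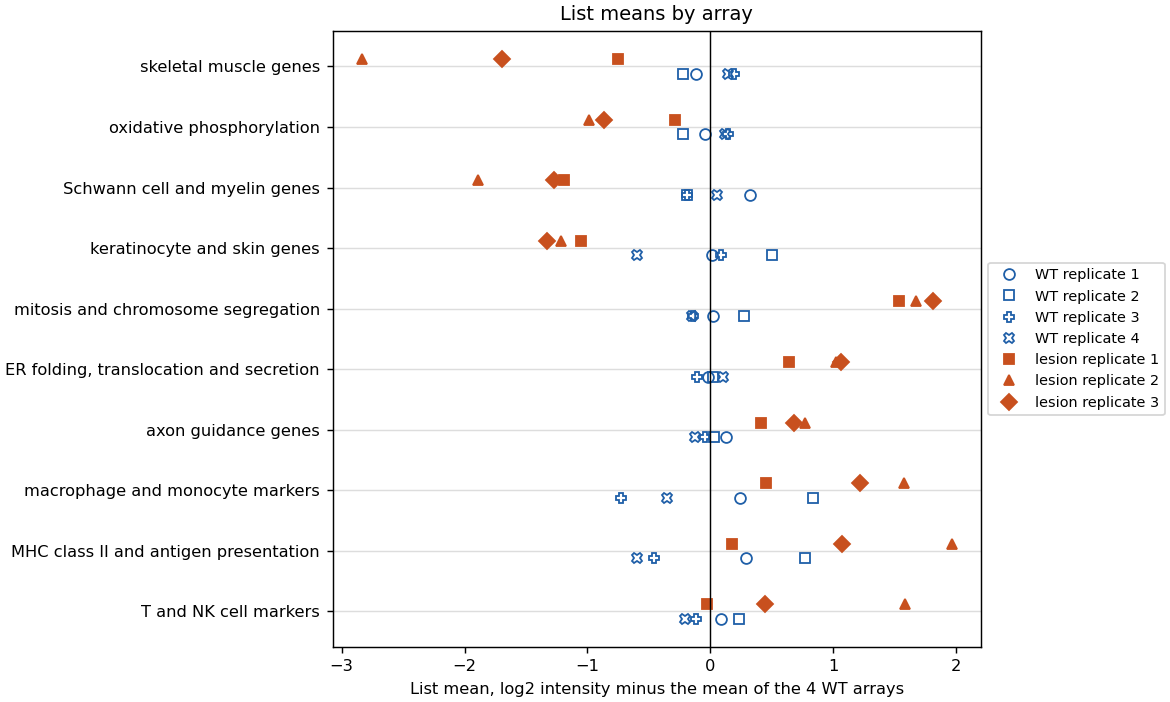
Mean log2 intensity of each list on each array, minus the mean of the 4 WT arrays (horizontal), for 10 lists. Lesion 2 has the lowest muscle mean (7.56 before subtraction) and the highest macrophage mean (9.64), while the mitosis means of the 3 lesions lie close together.

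Keratinocyte and skin genes fell in 6 of 13 and rose in none (median -0.92). Krt14, of the basal epidermis, was 8.09, 8.76, 8.24 and 6.35 in WT and 5.63, 5.21 and 4.85 in the lesions (limma adjusted p = 0.00864), and Krt17 was undetected in every lesion and at least 4.42-fold lower. Both had the opposite sign in the Prkar1a+/-Prkaca+/- lesions described below. Smooth muscle and pericyte markers fell in 8 of 18 and rose in none (median -0.85). Synpo2 fell by 2.44 ± 0.55 and Actg2, smooth muscle gamma actin, by 2.23 ± 0.58. Endothelial markers had 5 rises and 2 falls among 25, beside 18.2% and 16.7% of all genes tested. The rises numbered 10 without lesion 1, 3 without WT 2 and 2 with any other array left out. Aplnr, the apelin receptor, and the transcription factor Sox18 rose by 1.60 ± 0.19 and 0.93 ± 0.20, and Stab2, a scavenger receptor of sinusoids, and Esm1 fell by 1.58 ± 0.26 and 1.62 ± 0.41. Megakaryocyte and platelet markers had 4 rises and 2 falls among 13, beside the same shares of all genes. Selp was up by 1.15 ± 0.21 and Rab27b at least 2.02-fold higher. Alox12 was down by 1.96 ± 0.40 and P2rx1, an ATP-gated channel, by 2.72 ± 0.46. A second Rab27b probe did not pass (0.27, adjusted p = 0.222), and the platelet rises numbered 2 without WT 3, lesion 2 or lesion 3.

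Stromal progenitor markers had 5 rises and 2 falls among 24 (4 falls without lesion 1), beside 18.2% and 16.7% of all genes tested, with a median of -0.03. Itga11, a collagen receptor of fibroblasts, was 9.73 to 10.94 in WT and 12.25 to 12.65 in the lesions (log2 2.25 ± 0.30, limma adjusted p = 0.00203). The fibroblast activation protein Fap rose by 1.94 ± 0.43, and the intermediate filament Nes and the homeobox factor Meox2 fell by 1.32 ± 0.33 and 1.26 ± 0.40. Chondrocyte and disc markers had 2 rises, Matn4 (1.62 ± 0.23) and Col11a1 (1.34 ± 0.37), and 3 falls among 18, beside the same shares of all genes. Of the falls, Krt8 fell by 2.89 ± 0.72 and Cytl1 by 2.43 ± 0.49. Without lesion 2 there was 1 fall in this list, and without WT 3, lesion 1 or lesion 3 there was 1 rise.

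Homeobox genes had 6 rises and 4 falls among 30, shares near the 18.2% and 16.7% of all genes tested. There were 3 rises without lesion 2 and 7 falls without lesion 1. Hoxb2 was 6.61, 6.38, 6.63 and 6.80 in WT and 8.99, 9.20 and 9.41 in the lesions, with no overlap (log2 2.60 ± 0.16, limma adjusted p = 2.85e-04), and Hoxb9 rose by 2.19 ± 0.23. The more posterior genes Hoxc10 and Hoxd10 fell by 1.57 ± 0.29 and 1.20 ± 0.28. Hedgehog and Notch pathway genes had 4 rises and 2 falls among 20, beside the same 18.2% and 16.7% of all genes. The rises numbered 2 without WT 3, WT 4 or lesion 2 and 1 without lesion 3. Hey1 and Heyl, targets of Notch, rose by 1.14 ± 0.26 and 0.92 ± 0.18, and the ligands Dhh, made by Schwann cells, and Ihh, made by growth plate cartilage, fell by 1.76 ± 0.30 and 0.57 ± 0.18.

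Of 33 genes of cAMP synthesis, breakdown and anchoring 1 rose and 8 fell (median -0.22). The falls numbered 3 without WT 1, WT 3 or lesion 2, 4 without WT 4 or lesion 3, and 5 without background correction. Gnai2, an inhibitory G protein subunit, rose by 0.73 ± 0.20, and the anchoring proteins Akap6 and Akap12 fell by 1.39 ± 0.28 and 1.05 ± 0.34. Of 19 immediate early and AP-1 genes 3 rose and 3 fell, beside 18.2% and 16.7% of all genes tested, with 1 rise without WT 3, WT 4, lesion 2 or lesion 3. Nr4a2, an orphan receptor induced by parathyroid hormone, rose by 1.18 ± 0.17, from 6.75 to 7.19 in WT to 8.02 to 8.48 in the lesions (limma adjusted p = 0.00313), and Batf, undetected in WT, rose at least 1.50-fold. Egr2 fell by 1.02 ± 0.17, and Atf3 was 7.63, 9.52, 7.69 and 8.61 in WT and 6.56, 6.07 and 5.78 in the lesions (adjusted p = 0.00963). Crem, whose inducible short form is a classical target of the kinase, did not pass the threshold (0.19 ± 0.26, adjusted p = 0.588), and this gene was looked up after the lists had been run.

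The full cAMP response element, TGACGTCA, reads the same on both strands. It was present in 2.13% of the promoters of genes that rose, 3.17% of those that fell, 3.35% of those that did not pass the threshold and 3.10% of those of all genes tested. Of the genes named here, Cdkn2b (chr4:89310983-89311282, minus strand) and Mcm5 (chr8:75109259-75109558, plus strand), which both rose, hold it and are shown with it in capitals. Lmcd1 and Zap70, which fell, hold it as well.
Cdkn2b: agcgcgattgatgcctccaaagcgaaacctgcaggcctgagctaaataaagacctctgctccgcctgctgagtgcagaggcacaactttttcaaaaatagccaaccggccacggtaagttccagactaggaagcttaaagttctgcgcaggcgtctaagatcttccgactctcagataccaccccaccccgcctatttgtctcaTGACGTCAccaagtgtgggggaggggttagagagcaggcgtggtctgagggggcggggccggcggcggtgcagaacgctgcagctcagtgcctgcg
Mcm5: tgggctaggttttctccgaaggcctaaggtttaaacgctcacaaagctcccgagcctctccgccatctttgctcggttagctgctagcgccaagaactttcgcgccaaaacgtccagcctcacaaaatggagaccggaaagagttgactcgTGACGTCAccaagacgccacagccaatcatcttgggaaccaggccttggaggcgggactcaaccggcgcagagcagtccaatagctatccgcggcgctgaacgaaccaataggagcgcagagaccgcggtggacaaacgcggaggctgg
The element begins 46 bases before the annotated start in Cdkn2b and 99 before it in Mcm5.

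The remaining lists had calls in both directions or few calls, to be read beside 18.2% rises and 16.7% falls over all genes tested. Circadian clock genes had 6 falls and no rise among 17, 3 falls without WT 3 or lesion 2 and 2 without lesion 3, with Cry2 down by 1.19 ± 0.25 and Nr1d1 by 0.96 ± 0.27, and the labels give no time of day of sampling. Heat shock genes had 6 falls and 1 rise among 22, 3 falls without WT 1 and 2 without WT 3, WT 4, lesion 2 or lesion 3, with Hspa1a down by 1.56 ± 0.19 and Dnajb1 up by 0.58 ± 0.19. Hypoxia-responsive genes had 7 rises, led by Car12 and by the collagen lysyl hydroxylase Plod2 (1.84 ± 0.26), and 3 falls among 20, Egln1 and Ndrg1 falling by 1.31 ± 0.27 and 0.72 ± 0.18. Without lesion 2 that list had 4 rises and without lesion 3 it had 1 fall. Glutathione and NRF2 target genes had 9 rises and 9 falls among 34, and 4 falls without lesion 2 or lesion 3. Gpx3 rose by 1.90 ± 0.33, Txnip fell by 1.22 ± 0.23 and Gsta3 by 2.16 ± 0.48, although a second Gsta3 probe did not pass (0.24, limma adjusted p = 0.263). Calcium-binding EF-hand and annexin genes had 7 rises and 5 falls among 29. The rises numbered 4 without WT 4 or lesion 3 and 3 without lesion 2, and the falls 3 without WT 2, 2 without WT 1, WT 4 or lesion 2 and 1 without lesion 3. Calb2, calretinin, was 7.82, 4.54, 4.49 and 4.40 in WT and 9.08 to 10.46 in the lesions, detected on WT 1 and on no other WT array (adjusted p = 0.00661), and Anxa11 and Efhd1 fell by 0.92 ± 0.21 and 1.37 ± 0.40. Sterol synthesis genes had 1 rise, Ebp (1.23 ± 0.19), and 1 fall, Mvd (0.55 ± 0.16), among 18, and 3 rises without WT 2.

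Several genes named in the lists were detected on only some arrays of their dimmer group. Among the falls, Pllp, Krt14, Wfdc2, Serpina1a, Stab2, Mzb1, Ntrk3, Cytl1 and Ihh were detected on 2 of 3 lesion arrays and Scg3, Hoxd10 and Masp1 on 1. Among the rises, Top2a and Pmaip1 were detected on 1 of 4 WT arrays, Cfi on 2, and Ydjc, Birc5, Steap1 and Cxcl5 on 3.

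The comparison was set beside lesions that share none of its arrays. These were 2 lesions of Prkar1a+/-Prkaca+/- mice against 4 tail vertebral bones of Prkaca+/- mice, of the same age and background, normalised and fitted on their own. Of 3643 genes past the threshold here and tested in both, 3605 (99.0%) had the same sign there, beside 80.1% of the 6658 genes not past it. Of the 1883 rises 75.2% passed the threshold there in the same direction, beside 18.1% of all genes, and of the 1760 falls 74.3% did, beside 16.7%. With the first Prkar1a+/-Prkaca+/- lesion left out these shares were 47.9% and 44.0%, beside 9.85% and 8.79% of all genes. The median ratio of the difference there to the difference here was 0.869. In a fit of all 13 arrays, the difference between both lesion effects passed an adjusted p of 0.05 for 0 of 10596 genes in limma (smallest 0.692), with 255 at an unadjusted p under 0.05. With 3 and 2 lesions this fit can miss large differences. Krt17, at -2.60 here and 2.29 there, did not pass either, so the count does not show that the effects are equal.

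The mitosis list had a median of 1.66 in those lesions, the Schwann cell and myelin list -1.004, oxidative phosphorylation -0.71 and the macrophage list 1.24, each with the sign seen here. The skeletal muscle list, set aside above, was lower there too, with a median of -1.40 and 196 of 241 genes past the threshold. Shared signs are thus not independent of tissue make-up. The keratinocyte and skin list differed, with a median of -0.95 over the 12 genes tested in both here and 0.62 there, and of its 6 genes past the threshold here 2 had the same sign there. Krt14 and Krt17 fell here but differed by 2.84 (limma adjusted p = 0.0933) and 2.29 (adjusted p = 0.0167) there. Among genes past 1 log2 unit in both, 39 were lower here and higher there, of which 28 were keratin or keratin-associated genes, and none was higher here and lower there. Of 20 keratin-associated genes tested, 19 were highest on WT 1, with a mean of 9.85 there, 4.83 to 6.29 on the other WT arrays and 4.71 to 4.75 on the lesions, and 0 passed the threshold in limma.

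**Figure D5:**
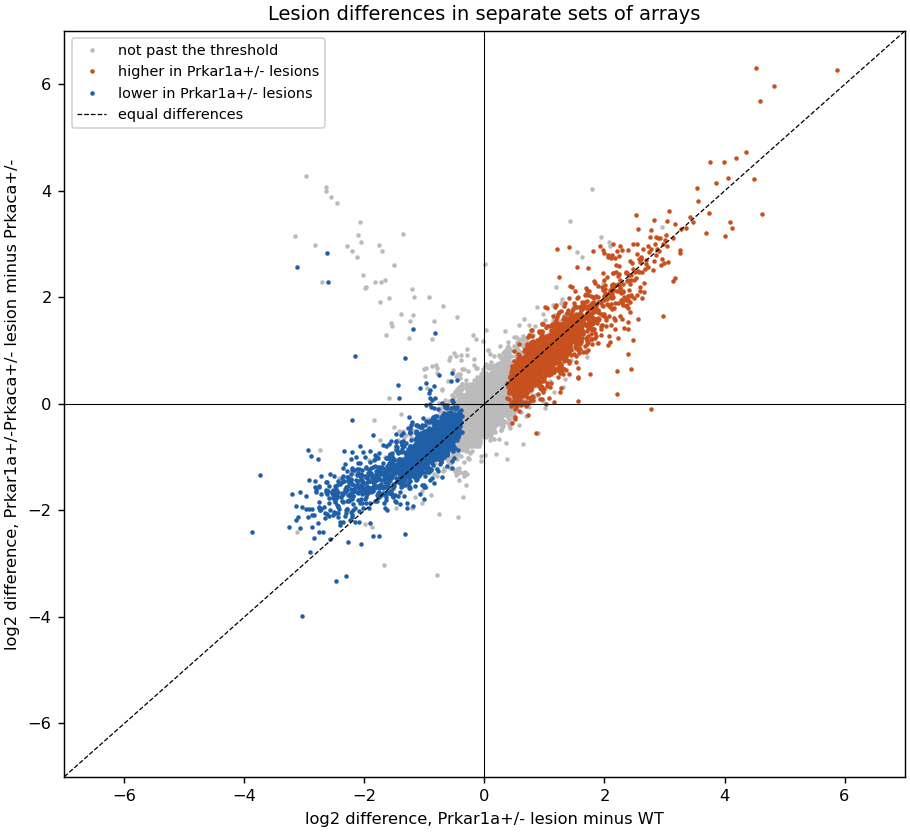
Log2 difference of each gene in Prkar1a+/- lesions against WT (horizontal) and in Prkar1a+/-Prkaca+/- lesions against Prkaca+/- bone (vertical), over 10301 genes tested in both. Of the coloured genes, past the threshold on the horizontal axis, 99.0% have the same sign on the vertical axis, and the 39 genes past 1 log2 unit that are lower here and higher there lie at the upper left.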

How the data were processed

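RNA was extracted with Trizol, cleaned with DNase treatment, amplified to biotinylated cRNA and hybridised to Illumina bead arrays, per the labels' protocols. Per the file headers, the deposited table used here pairs, for 25697 probes, a linear signal intensity with a detection p-value. Of each array 15573 to 16885 intensities were filled, since those with a deposited detection p-value above 0.1 were empty. The deposited score table holds each array's intensities centred on their mean and divided by their SD, which was checked against the intensities, and was not used in tests. The sources used here name no scanner, software or slide. The number of arrays limits the precision.

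Empty cells were filled from their detection p-value through a line of intensity on its normal quantile, fitted on each array over p-values from 0.01 to 0.1. That line also gave the background mean and SD for normexp correction. After an offset of 16, quantile normalisation over the 7 arrays and log2, probes detected (p-value under 0.01) on 2 or more arrays were tested, 15564 in all. The brightest tested probe by mean stands for its gene. The platform annotation gave 1 symbol for 23978 probes and none for 1719, and 23962 named probes matched the RefSeq gene table. Differences were fitted with limma 3.58.1 in R 4.3.3 (1 mean per group, eBayes, 5 residual degrees of freedom), with Benjamini-Hochberg adjustment over the tested probes and a threshold of 0.05. Every adjusted p comes from limma. Rose, fell, higher and lower refer to genes past that threshold, and ± gives the SE of a log2 difference. The fit was tested on simulated data.

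The 49 lists, the members and the tests were chosen with earlier results of these data known, so counts of a list are descriptions with no set test. They are to be read beside the 18.2% higher and 16.7% lower over all genes tested. The result of 1 list is not reported here. Named genes, outside the bone, muscle, fat and red cell lists, are the 15 rises and 15 falls with the widest gap between the nearest arrays of both groups (detected on every array of the brighter group), up to 2 largest called rises and 2 largest called falls per list, all genes of the kinase, and Xist with Y-linked genes. A few others are named as further examples of a list and were chosen after their values were seen. Symbols that look like clone identifiers were passed over. The labels do not say whether the same replicate number in both groups marks a shared source. Deviations of same-numbered arrays from their group means correlated at -0.10, 0.33 and -0.02, within -0.34 to 0.33 over all pairs of a lesion with a WT array. Correlations over so few pairs cannot decide the question. Alternatives changed the background correction, offset, scaling, probe filter, arrays, covariates and weights.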

Additional observations from a re-analysis of the deposited data

Results flagged for a closer look

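Of the 177 genes examined, 11 (6.21%) had 1 WT array far from the other 3, where the gap to the nearest array, as a share of the group's range, is above Dixon's 95% critical value for 4 samples. Chance flags about 1 in 20 such groups. The lesion group, with 3 samples, was not examined in this way.

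WT 1 was the distant array for Calb2 (share 0.960, high), Brinp3 (0.858, high) and Myl6b (0.875, low). Calb2 and Brinp3 lay at 7.82 and 7.54 on WT 1, near background on the other WT arrays, and higher again on the lesions. WT 2 was the distant array for Xist (0.955, high), for Kdm5d (0.948, low) and Eif2s3y (0.974, low), both Y-linked, and for Prc1 (0.957, high), Ccl11 (0.846, high) and Vldlr (0.855, low). WT 3 was the distant array for Sox18 (0.976, high) and Pmaip1 (0.933, high). In Sox18 that distance was small in size, 8.43 against 8.03 to 8.04, and in Prc1 it was 7.78 against 6.83 to 6.88.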

How the results depend on the processing

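Main counts were 1929 higher and 1765 lower genes. Without background correction, with an offset of 50, with 75th percentile scaling, with probes detected on every array, without a filter on dim probes, with all 13 arrays in 1 fit, with Xist-high arrays as a covariate and with array weights, they ranged from 1456 to 2508 higher and from 1234 to 2324 lower. Leaving out 1 array gave 1028 to 2235 higher and 717 to 1992 lower genes. The muscle list mean as a covariate gave 20 and 0, and the log2 difference of Prkar1a was then -1.07 (limma adjusted p = 0.144). Xist-low arrays only, chosen after seeing the data, gave 306 and 128. The share of genes with the same sign in the Prkar1a+/-Prkaca+/- lesions was 97.5% to 99.2%.

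With the replicate number as a block 1197 genes were higher and 911 lower, of which 1181 and 887 were also past the threshold without it. Whether the numbers pair the samples is not given by the labels and was not settled.

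With the muscle covariate the sign turned for Akap12 (0.038), Tob1 (0.15), Ccl27a (0.11), Cpt1b (0.75), Batf (-0.054), Tnfsf13b (-0.17), B2m (-0.15), Pkia (0.44) and Meox2 (0.22). It also turned for the medians of chemokines (-0.35), interleukins and TNF family (-0.0047), prostaglandins (-0.12), MHC (-0.69), granzymes (-0.14), EF-hand and annexin genes (-0.14), hypoxia (-0.00017) and macrophages (-0.16). These lists had main medians above the SD of their means over the lesion arrays. Below that SD, the medians of T and NK cells (0.57 to -1.19), interferon-stimulated genes (0.25 to -0.70) and immediate early genes (0.13 to -0.43) turned as well. So did the B cell (-0.36), serpin (-0.14), platelet (-0.26) and stromal progenitor (0.092) medians. The EF-hand median also turned with probes detected on every array (-0.040), the Xist covariate (-0.058), without WT 3 (-0.035), without lesion 2 (-0.0099; highest without 1 array 0.19) and on Xist-low arrays (-0.020). The granzyme median turned with probes detected on every array (-0.062) and the hypoxia median on Xist-low arrays (-0.048). The cause was not tested. Genes undetected in a group have only a bound there.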

Other observations

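Mast cell genes were not among the lists and were looked up after the values had been seen, so no test is attached to them as a group. Of 9 measured, 5 rose and none fell, beside 18.2% and 16.7% of all genes tested, with a median log2 difference of 1.76. A gene was measured only if detected on 2 or more of the 7 arrays, so any member undetected in WT could enter only through the lesions. Their mean was 6.802 to 7.22 on the WT arrays and 7.47, 8.77 and 9.52 on lesions 1, 2 and 3. Cpa3, carboxypeptidase A3, was 8.04, 7.77, 7.77 and 7.68 on the WT arrays and 8.50, 10.47 and 11.65 on the lesions. Mcpt4 and Cma1, which encode mast cell proteases, differed by 2.47 ± 0.65 and 2.21 ± 0.59. In the Prkar1a+/-Prkaca+/- lesions against Prkaca+/- bone none of these 5 genes passed the threshold, with log2 differences of 0.94 for Cpa3, 1.20 for Mcpt4, 0.62 for Cma1, 0.66 for Fcer1a and 0.56 for Hdc (limma adjusted p = 0.169 to 0.537). Lesion 3 was highest here, unlike in the macrophage list, where lesion 2 was highest.

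The kininogen genes Kng1 and Kng2, near-identical copies whose products release bradykinin, rose by 3.43 ± 0.68 and 3.36 ± 0.71 (limma adjusted p = 0.00926 and 0.0112). Kng1 was 7.27 to 9.98 on the WT arrays and 10.90 to 12.93 on the lesions. Bdkrb1, the inducible bradykinin receptor, was undetected in WT and at least 1.34-fold higher. These genes were also chosen after their values were seen.

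Clustered histone genes did not share a direction. Their counts are to be read beside 18.2% rises and 16.7% falls over all genes tested. Of 11 H2A genes 7 rose and 1 fell (median 2.09), of 9 H2B genes none rose and 3 fell (-0.47), of 6 H3 genes 1 rose and 3 fell (-0.93), and of 9 H4 genes none rose and 5 fell (-1.03). The probes of such near copies may share transcripts.

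WT 1 and WT 2 were most often the highest WT array among genes that rose. Over all 1929 rises WT 2 was highest in 970 and WT 1 in 518, and over the 199 rises past 2 on the log2 scale in 92 and 84. Of the 36 rises past 3 on the log2 scale, WT 1 was the highest WT array in 26 and WT 2 in 6, and in 10 of them it lay more than 2 log2 units above the next WT array. Those 10 are Tnfsf11, the osteoclast factor RANKL, with 7.56 on WT 1 and 5.35 to 5.55 on the other WT arrays, Atp12a, a proton pump, with 10.06 on WT 1 and 5.08 to 5.46 on the others, and Prss35, Brinp3, Calb2, Slpi, Cxcl5, Cxcl13, Spink8 and Reg3g. No other WT array stood so far above the rest in that set. The genes were picked by their rise, and no cause was tested.

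The hair keratin Krt34 was 11.61, 5.86, 4.69 and 8.25 on WT arrays 1 to 4 and was not detected on the lesions (limma adjusted p = 0.131).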
